A study of Rattus norvegicus with 8 samples.

Results

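The 9 genes described here encode core proteins of synaptic vesicle endocytosis: the dynamins Dnm1, Dnm2 and Dnm3, the endophilins Sh3gl1 and Sh3gl2, the amphiphysins Amph and Bin1, the phosphoinositide phosphatase Synj1 and the auxilin Dnajc6. Their rows were taken by symbol, and each symbol occurred once among the 28909 symbols of the count table. The 9 genes were chosen with earlier results of these data known. Ribosome-depleted RNA had been sequenced from primary hippocampal neurons of embryonic Sprague-Dawley rats. The cultures were grown on porous inserts, with somata on the upper side and processes (axons and dendrites) passing to the lower side. The treatment, picrotoxin (PTX), is an antagonist of the GABA-A receptor and raises network activity. Control cultures received its vehicle, ethanol, instead. The 4 groups, each with 2 libraries, were somata of control cultures, somata of cultures given PTX for 48 h from day in vitro (DIV) 18 to 20, processes of control cultures and processes of PTX cultures. The inserts separate compartments and not cell types, and the labels do not say whether the 2 libraries of a group came from separate cultures. The p-values therefore measure the spread between libraries, which may be technical.

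When a synaptic vesicle has fused, its membrane is retrieved from the presynaptic surface. BAR-domain proteins such as endophilin and amphiphysin bind and curve the neck of the budding membrane and recruit dynamin, a GTPase that cuts the neck. Synaptojanin then removes phosphates from the membrane lipid PI(4,5)P2, and auxilin recruits the chaperone Hsc70, which takes the clathrin coat off the vesicle. Several of these proteins exist in a brain-enriched form (Dnm1, Dnm3, Sh3gl2, Amph) and a widely expressed form (Dnm2, Sh3gl1, Bin1).

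Total counts ranged from 12290890 to 18455662 reads per library. In the process libraries 68.5 to 72.5% of the reads came from the mitochondrial genome, against 22.6 to 26.7% in the somata, so the processes were the less deeply sampled compartment for nuclear genes (4702054 to 5491237 reads against 9517542 to 11227599). Levels are given as CPM, the reads of a gene relative to the size of its library, after TMM scaling, which brings the libraries to a common scale through the bulk of genes. A gene was tested when it had more than 20 reads in at least 2 libraries. All 9 endocytosis genes passed, among 14309 tested genes, with 92 to 3729 reads in each library. Astrocyte markers accompanied the neuronal markers in every library. Their summed level was 2600 to 3908 CPM in somata, 12430 to 13910 CPM in control processes and 10500 to 11787 CPM in PTX processes. In control cultures 2 of the 6 were called higher in processes (Gfap at 2.60 and S100b at 2.16 on the log2 scale) and 2 lower (Slc1a3 at -0.56 and Gja1 at -0.38). The summed neuronal markers reached 1535 to 1863 CPM in somata, 5159 to 5497 CPM in control processes and 3931 to 4632 CPM in PTX processes. Of these 6 markers, 2 were called higher in control processes than in control somata (Map2 at 2.30 and Rbfox3 at 0.52 on the log2 scale). Another 2 were called lower (Tubb3 at -0.57 and Snap25 at -0.37). Markers of oligodendrocyte precursors summed to 233 to 561 CPM over the libraries, those of oligodendrocytes to 76.0 to 185 CPM and those of fibroblasts to 14.1 to 43.7 CPM. Microglial markers summed to at most 1.51 CPM and endothelial markers to at most 0.510 CPM, with Cldn5 at 0 in every library. The microglial marker Itgam and the endothelial marker Pecam1 were absent from the count table. In such bulk RNA, fewer cells of a type and less RNA per cell cannot be told apart.

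Upstream sequences are shown for Dnajc6 and Dnm1, the members that fell with PTX in processes, and for Sh3gl2, the member closest to the threshold in that comparison. They are the 250 bases before the annotated start in RefSeq (build GRCr8), printed 5′ to 3′ in the direction of the gene. All 9 genes had an entry. The windows are chr5:121289949-121290198 (plus strand), chr3:36046290-36046539 (minus strand) and chr5:104699020-104699269 (plus strand). Capitals mark every match, on either strand, to 4 motifs chosen after the values were known: the cAMP response element TGACGTCA, its shorter form TGACG, the GC box GGGCGG and the Egr site GCGGGGGCG.
Dnajc6: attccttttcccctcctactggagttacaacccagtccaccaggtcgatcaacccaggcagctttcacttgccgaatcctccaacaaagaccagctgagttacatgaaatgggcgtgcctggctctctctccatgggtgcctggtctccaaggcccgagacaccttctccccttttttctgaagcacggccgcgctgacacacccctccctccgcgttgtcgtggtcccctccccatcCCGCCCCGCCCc
Dnm1: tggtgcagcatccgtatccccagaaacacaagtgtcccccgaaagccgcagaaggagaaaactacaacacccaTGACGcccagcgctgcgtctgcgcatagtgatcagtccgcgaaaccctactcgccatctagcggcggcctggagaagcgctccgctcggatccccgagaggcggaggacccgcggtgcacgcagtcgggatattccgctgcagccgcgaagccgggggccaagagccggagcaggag
Sh3gl2: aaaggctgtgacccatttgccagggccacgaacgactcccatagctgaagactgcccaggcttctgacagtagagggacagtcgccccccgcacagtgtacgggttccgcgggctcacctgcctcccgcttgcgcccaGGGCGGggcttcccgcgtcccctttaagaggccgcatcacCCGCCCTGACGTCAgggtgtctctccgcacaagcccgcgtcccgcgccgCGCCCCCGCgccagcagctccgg

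The 3 windows did not hold the same letters. Dnajc6 had 2 overlapping GC boxes beginning 12 and 7 bases before the start and no TGACG. Dnm1 had a single TGACG, 177 bases before the start, and no GC box. Sh3gl2 held the full TGACGTCA at 66 bases before the start, with TGACG read within it on each strand, 2 GC boxes and the Egr site. Across the 9 genes, TGACG occurred in 5, the GC box in 5, the full response element in 1 and the Egr site in 1. None of the 9 held TATAAA, which was searched too. The same letters occurred in 18.2%, 30.5%, 1.59%, 2.45% and 12.9% of 33469 promoter windows of the same length, in the order TGACG, GC box, TGACGTCA, Egr site and TATAAA. All 9 windows were rich in G and C, at 55.2 to 69.6% against a median of 51.2%, and held 11 to 30 CpG against a median of 5. A match of letters is a description and not a binding site.

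The dynamins differed in how their levels were spread over the 4 groups. Dnm1, the main dynamin of presynaptic terminals, measured 158 and 145 CPM in control somata, 118 and 110 CPM in PTX somata, 124 and 83.7 CPM in control processes and 62.8 and 59.4 CPM in PTX processes. Its PTX libraries lay below the control libraries of the same compartment, and the control processes had the widest gap between replicates of any group. Dnm3, which is found on both sides of the synapse, measured 35.3 and 31.6 CPM in control somata, 26.3 and 18.3 CPM in PTX somata, 19.0 and 14.9 CPM in control processes and 15.4 and 9.95 CPM in PTX processes. Replicate 2 was below replicate 1 in every group for Dnm3, and the PTX and control ranges overlapped in processes but not in somata. Dnm2, the widely expressed dynamin, measured 31.7 and 36.3 CPM, then 33.8 and 33.8 CPM in the somata of control and PTX cultures. In processes Dnm2 was at 27.8 and 27.4 CPM in control and 31.8 and 28.3 CPM in PTX cultures, so it alone of the 3 dynamins had both PTX libraries above both controls there.

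Both endophilins and both amphiphysins were lower in processes than in somata on average. Sh3gl2 (endophilin A1, the brain form) measured 41.4 and 36.9 CPM in control somata, 31.7 and 32.8 CPM in PTX somata, 25.9 and 25.6 CPM in control processes and 18.7 and 17.6 CPM in PTX processes. Its 4 groups did not overlap at all, and the replicates of each lay close together. Sh3gl1 (endophilin A2, widely expressed) measured 26.1 and 30.2 CPM in control somata and 31.0 and 30.5 CPM in PTX somata. In processes Sh3gl1 was at 19.7 and 20.6 CPM in control and 17.9 and 19.8 CPM in PTX cultures. Its compartments were apart, while control and PTX processes overlapped. Amph, the brain amphiphysin and the member with the fewest reads (92 to 432), measured 18.4 and 15.7 CPM in control somata, 14.2 and 14.5 CPM in PTX somata, 17.1 and 12.7 CPM in control processes and 10.6 and 10.1 CPM in PTX processes. Bin1, the widely expressed amphiphysin, which also has a brain isoform that gene-level counts do not separate, measured 53.7 and 56.4 CPM in control somata and 55.5 and 56.6 CPM in PTX somata. Bin1 was at 48.1 and 41.9 CPM in control processes and 45.1 and 36.1 CPM in PTX processes, where the 2 groups overlapped.

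Synj1 and Dnajc6 act late in the cycle, and in control cultures their levels went opposite ways between compartments. Synj1, synaptojanin 1, measured 139 and 123 CPM in control somata, 130 and 128 CPM in PTX somata, 74.9 and 73.0 CPM in control processes and 57.4 and 57.0 CPM in PTX processes. Its process libraries were all below its somata libraries, and the PTX processes were the lowest group. Dnajc6, the neuronal auxilin, measured 120 and 109 CPM in control somata, 114 and 95.1 CPM in PTX somata, 224 and 195 CPM in control processes and 128 and 107 CPM in PTX processes. The control processes stood above all other libraries, and the other 3 groups overlapped. The mean of Dnajc6 was 115 ± 7.69, 104 ± 13.1, 210 ± 21.0 and 118 ± 14.8 CPM (SD, n = 2) in these 4 groups.

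**Figure D1:**
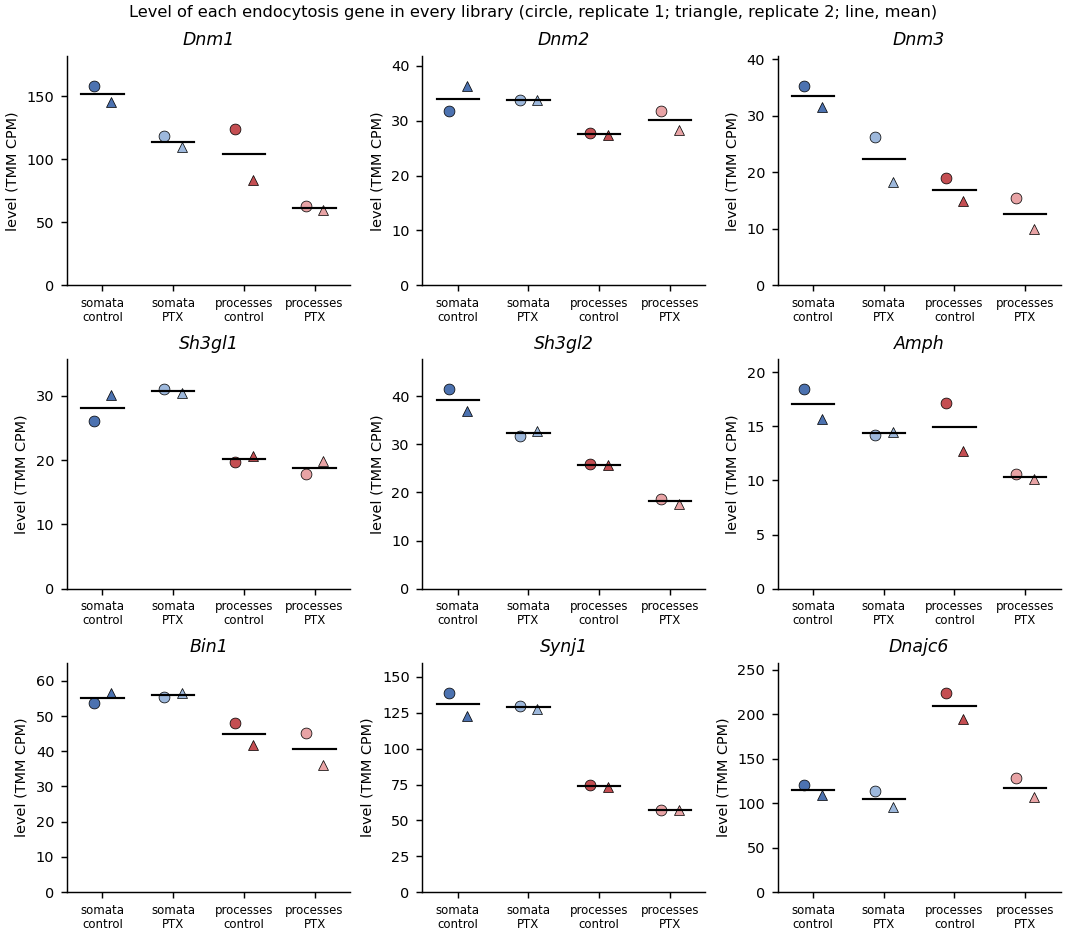
Level of each gene (vertical axis, TMM-scaled CPM, starting at 0) in the 4 groups, with a circle for replicate 1, a triangle for replicate 2 and a line at the mean of the 2. Dnajc6 stands highest in control processes (195 and 224 CPM), whereas the mean of each of the other 8 genes is lower in control processes than in control somata.

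The first comparison asks which of these RNAs are more or less abundant in processes than in somata. In control cultures Dnajc6 was the 1 member higher in processes, at 1.83 times its level in somata, while Synj1, Dnm3, Sh3gl2, Dnm1 and Sh3gl1 were lower, at 0.507 to 0.715 times. Differences were fitted with edgeR's quasi-likelihood test over all 8 libraries, and a gene was called when its Benjamini-Hochberg adjusted p over the 14309 genes was under 0.05. Under that rule 47.7% of all tested genes were called between compartments, 25.8% higher and 21.9% lower in processes, against 6 of the 9 endocytosis genes (1 higher and 5 lower). The median log2 fold change of the 9 was -0.48, against -0.05 over all tested genes.

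The edgeR log2 fold change of Dnajc6 between processes and somata in control cultures was 0.87 (SE 0.136, adjusted p = 0.000437). Synj1 went the other way at -0.82 (SE 0.105, adjusted p = 0.000102), and Dnm3 had the lowest value of the set at -0.98 (SE 0.218, adjusted p = 0.00387). Sh3gl2 was at -0.60 (SE 0.114, adjusted p = 0.00145), Dnm1 at -0.55 (SE 0.159, adjusted p = 0.0158) and Sh3gl1 at -0.48 (SE 0.124, adjusted p = 0.00832). The call of Dnm1 was lost without control somata replicate 1 (log2 fold change -0.48, edgeR adjusted p = 0.0831) or control processes replicate 2 (-0.29, adjusted p = 0.0945), and that of Sh3gl1 without control somata replicate 2 (-0.38, adjusted p = 0.0748). Dnm2, Bin1 and Amph did not pass, with log2 fold changes of -0.30 (adjusted p = 0.0569), -0.29 (adjusted p = 0.0816) and -0.19 (adjusted p = 0.339) in the same test. With the replicate number as a block, edgeR also called Dnm2 (adjusted p = 0.0217) and Bin1 (adjusted p = 0.0191) lower, as it did 28.0% of all tested genes. These directions are relative to the bulk of genes that TMM centres. Scaled by library size alone, the median of all tested genes was -1.86, all 9 members were lower in processes and Dnajc6 was at -0.94.

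In PTX cultures Synj1, Dnm1, Sh3gl2, Dnm3, Sh3gl1, Amph and Bin1 were lower in processes, and Dnajc6, the 1 member with a fitted value above 0, did not pass the test. The 7 called members compare with 49.8% of all tested genes called and 24.0% called lower. The median log2 fold change of the 9 was -0.70, against -0.05 over all tested genes. Synj1 was at -1.18 (SE 0.106, edgeR adjusted p = 8.58e-06), Dnm1 at -0.90 (SE 0.162, adjusted p = 0.00100), Sh3gl2 at -0.83 (SE 0.117, adjusted p = 0.000203) and Dnm3 at -0.83 (SE 0.226, adjusted p = 0.0110). Sh3gl1 was at -0.70 (SE 0.123, adjusted p = 0.000845), Amph at -0.48 (SE 0.167, adjusted p = 0.0347) and Bin1 at -0.47 (SE 0.127, adjusted p = 0.0110). Dnajc6 gave 0.18 (95% interval -0.13 to 0.48, edgeR adjusted p = 0.310) and Dnm2 -0.17 (-0.43 to 0.09, adjusted p = 0.248). Without PTX processes replicate 2, the calls of Dnm3 (-0.54, edgeR adjusted p = 0.115), Amph (-0.44, adjusted p = 0.142) and Bin1 (-0.31, adjusted p = 0.102) were lost. The call of Amph was lost without any 1 of the 4 PTX libraries (-0.51 to -0.44, edgeR adjusted p = 0.0837 to 0.142), and that of Dnm3 also without PTX somata replicate 1 (-0.53, adjusted p = 0.0941).

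The second comparison asks what 48 h of PTX did in the somata. No member passed edgeR's adjusted p threshold there, where 3.59% of all tested genes did. At an unadjusted p under 0.05, 3 of the 9 passed, against 2229 of the 14309 tested genes. DESeq2 called 0 of the 9 and 503 of the 14309 tested genes. Lower fitted values were found for 7 members and higher ones for 2, with a median log2 fold change of -0.14 against -0.01 over all tested genes. Dnm3 was at -0.58 (SE 0.199, adjusted p = 0.17), Dnm1 at -0.41 (SE 0.156, adjusted p = 0.217) and Sh3gl2 at -0.28 (SE 0.107, adjusted p = 0.220). With the replicate block these 3 were called lower (edgeR adjusted p = 0.000305, 0.00612 and 0.0474), as were 6.79% of all tested genes.

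The remaining 6 genes had somatic values from -0.25 (Amph, 95% interval -0.58 to 0.08) to 0.13 (Sh3gl1, -0.12 to 0.38). Dnajc6 was at -0.14 (95% interval -0.43 to 0.16), Synj1 at -0.02 (-0.24 to 0.20), Dnm2 at -0.01 (-0.26 to 0.24) and Bin1 at 0.03 (-0.24 to 0.30). For Synj1, Dnm2 and Bin1 the intervals leave room for changes of up to about 0.30 log2 units in either direction.

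In processes Dnajc6 and Dnm1 fell with PTX, to 0.562 and 0.589 times their control levels. Both had been singled out by the study from these same libraries. Their direction here, and what they add to the count and median of the 9 genes, is therefore not independent evidence. The study also counted Dnajc6 RNA spots by single-molecule in situ hybridization in dissociated neurons. It reported fewer spots in dendrites with PTX and no change in somata. Dnajc6 and Dnm1, 2 of the 9 genes, compare with 3.74% of all tested genes called and 2.10% called lower. DESeq2 called the same 2 members, among 655 of the 14309 tested genes. Dnajc6 fell by 0.83 on the log2 scale (SE 0.138, edgeR adjusted p = 0.0102) and Dnm1 fell by 0.76 (SE 0.164, edgeR adjusted p = 0.0302). Neither call rested on all libraries equally. Without control processes replicate 1, in which both had their highest process level, edgeR gave -0.73 for Dnajc6 (adjusted p = 0.0864) and -0.45 for Dnm1 (adjusted p = 0.178). Without PTX processes replicate 2 the values were -0.71 (adjusted p = 0.0840) and -0.72 (adjusted p = 0.154). Without PTX processes replicate 1, Dnajc6 stayed under the threshold and Dnm1 did not (-0.80, adjusted p = 0.125). With only the 4 process libraries in the fit, Dnm1 was at -0.75 (adjusted p = 0.0588).

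Fitted values in PTX processes were below those in control processes for 8 of the 9 members, with a median log2 fold change of -0.43 against -0.01 over all tested genes. Amph was at -0.53 (SE 0.178, edgeR adjusted p = 0.149), Sh3gl2 at -0.50 (SE 0.124, adjusted p = 0.0514) and Synj1 at -0.37 (SE 0.108, adjusted p = 0.0955). With the replicate block edgeR called these 3 lower (adjusted p = 0.0367, 0.00856 and 0.0146), as it did 6.09% of all tested genes. Dnm3 was at -0.43 (95% interval -0.97 to 0.11), Bin1 at -0.15 (-0.44 to 0.14), Sh3gl1 at -0.09 (-0.39 to 0.20) and Dnm2 at 0.12 (-0.15 to 0.40). The summed neuronal markers and the summed astrocyte markers were also lower in PTX than in control processes, as given above. The fitted values of the 6 neuronal markers ran from -0.53 (Rbfox3) to 0.13 (Nefl). In this comparison edgeR called 0 of the 6 neuronal and 0 of the 6 astrocyte markers. Of the 3 markers of excitatory neurons, Camk2a fell (-1.45, edgeR adjusted p = 0.00165), Slc17a7 rose (0.73, adjusted p = 0.0172) and Slc17a6 was at 1.10 (adjusted p = 0.104). Of the 3 interneuron markers Gad2 rose (0.92, edgeR adjusted p = 0.0384), and their summed level was 124 to 156 CPM in control and 203 to 266 CPM in PTX processes. Snap25, another presynaptic neuronal gene, was at -0.12 (edgeR adjusted p = 0.717). The part of the marker levels in the values of the endocytosis genes was not tested.

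The genes that occur here in both forms were also sorted by form, a grouping made after the values were seen and given without a test. The brain-enriched Dnm1, Dnm3, Sh3gl2 and Amph lay between -0.58 and -0.25 in somata and between -0.76 and -0.43 in processes. The widely expressed Dnm2, Sh3gl1 and Bin1 lay between -0.01 and 0.13 in somata and between -0.15 and 0.12 in processes. Dnajc6, which is neuronal, was at -0.14 and -0.83, outside the range of the brain-enriched forms in both compartments, and Synj1 was at -0.02 and -0.37. Sh3gl3, an endophilin A gene outside the 9, was at -0.12 in somata and -0.04 in processes.

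**Figure D2:**
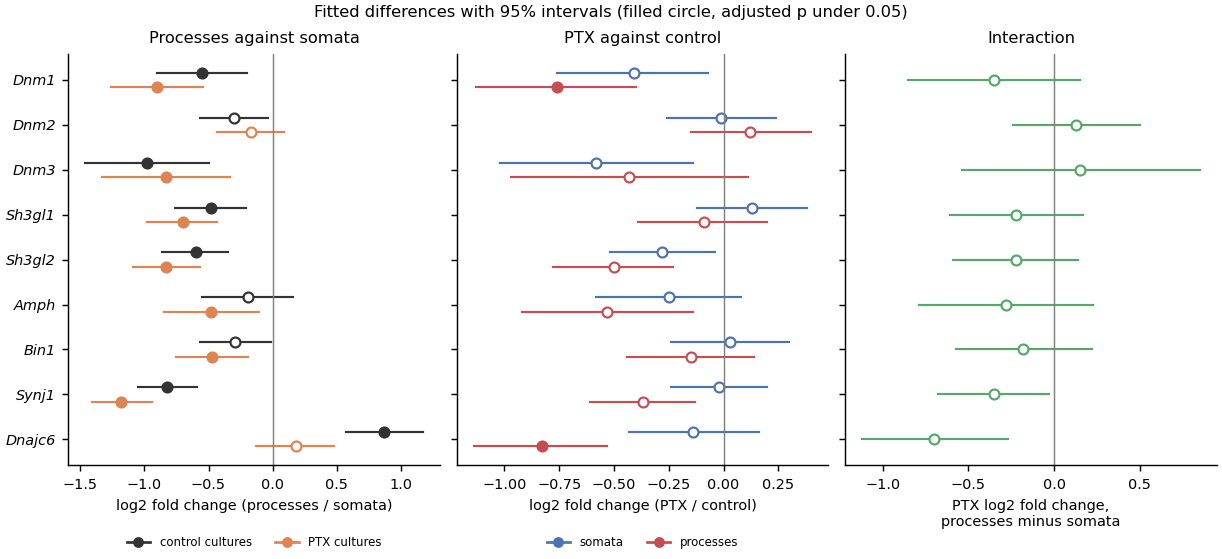
Fitted log2 fold changes (horizontal axes) of the 9 genes between processes and somata, between PTX and control, and for the PTX difference in processes minus that in somata, with 95% intervals and filled circles for an adjusted p under 0.05. Dnajc6 is the gene to the right of 0 in the control compartments (0.87) and the lowest in PTX against control processes (-0.83).

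Whether PTX acted differently in the 2 compartments was tested by the interaction, the PTX log2 fold change in processes minus that in somata. Neither a member nor any other gene passed the adjusted p threshold of edgeR's quasi-likelihood test (0%). In that test 572 of the 14309 genes had an unadjusted p under 0.05, and the smallest adjusted p was 0.115. DESeq2 and edgeR's likelihood ratio test each called 4 genes, 0 of them members. Of the 9 genes, Dnajc6 had the lowest value, -0.70 (SE 0.193, 95% interval -1.12 to -0.27, edgeR adjusted p = 1, unadjusted p = 0.00434). With the replicate block Dnajc6 passed, at -0.69 (SE 0.126, edgeR adjusted p = 0.0225), among 15 genes or 0.105% of those tested (0.0280% with a negative value). Synj1 was at -0.35 (95% interval -0.68 to -0.03, edgeR adjusted p = 1). Dnm1 was also at -0.35 (95% interval -0.85 to 0.15), so its fall in processes was not shown to differ from its value in somata. The other 6 lay between -0.28 (Amph) and 0.15 (Dnm3).

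Ratios of the reads of 2 genes within a library do not depend on how libraries are scaled. For 6 such ratios the 4 process libraries were compared with the 4 somata libraries by an exact two-sided permutation test. Its smallest possible p is 0.0286, and its permutations took no account of PTX or of the replicate numbers. Dnajc6 had 0.867 and 0.886 reads for each Synj1 read in control somata, 0.873 and 0.741 in PTX somata, 3.0 and 2.67 in control processes and 2.24 and 1.88 in PTX processes. The compartments did not overlap. The mean log2 ratio was 1.27 ± 0.293 in processes and -0.25 ± 0.121 in somata (SD, n = 4, control and PTX libraries together). The difference was 1.52 (exact p = 0.0286 by the permutation test, the smallest it can give, and 0.171 after Benjamini-Hochberg adjustment over the 6 ratios). A ratio that alone reaches the smallest p cannot pass after this adjustment, so the test could not decide for it. The shift between compartments was 1.69 in control and 1.35 in PTX cultures. The ratio is one of reads and not of molecules, because transcript length was not taken into account.

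The 5 ratios within a protein family did not pass the test between compartments. The differences in log2 ratio were 0.50 for Dnm2 over Dnm1 (exact p = 0.171), -0.67 for Dnm3 over Dnm2 (exact p = 0.0857), -0.17 for Dnm3 over Dnm1 (exact p = 0.457), 0.12 for Sh3gl1 over Sh3gl2 (exact p = 0.600) and -0.04 for Bin1 over Amph (exact p = 0.857). After adjustment over the 6 ratios these were 0.257 to 0.857.

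Within a compartment, PTX was compared with control by 2 libraries against 2, where the smallest exact p is 0.333, so these ratios are described without a test. Dnm2 had 0.200 and 0.250 reads for each Dnm1 read in control somata and 0.285 and 0.308 in PTX somata, then 0.224 and 0.327 in control processes and 0.506 and 0.475 in PTX processes. Sh3gl1 had 0.631 and 0.817 reads for each Sh3gl2 read in control somata, 0.977 and 0.930 in PTX somata, 0.763 and 0.803 in control processes and 0.957 and 1.13 in PTX processes. In both pairs the widely expressed form made up a larger share of reads in all PTX libraries than in the control libraries of the same compartment. On the log2 scale this was a rise in the mean by 0.41 in somata and 0.86 in processes for Dnm2 over Dnm1, and by 0.41 in each compartment for Sh3gl1 over Sh3gl2. Bin1 over Amph moved by 0.27 in somata and 0.36 in processes, again without overlap. Dnm3 over Dnm2 moved by -0.60 and -0.56, whereas Dnm3 over Dnm1, the 2 brain-enriched forms, moved by -0.19 and 0.29. Groups of 2 libraries can separate in this way without a real difference, and how often other gene pairs did so was not counted. These ratios rest on the same reads as the PTX values above and are not separate evidence.

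**Figure D3:**
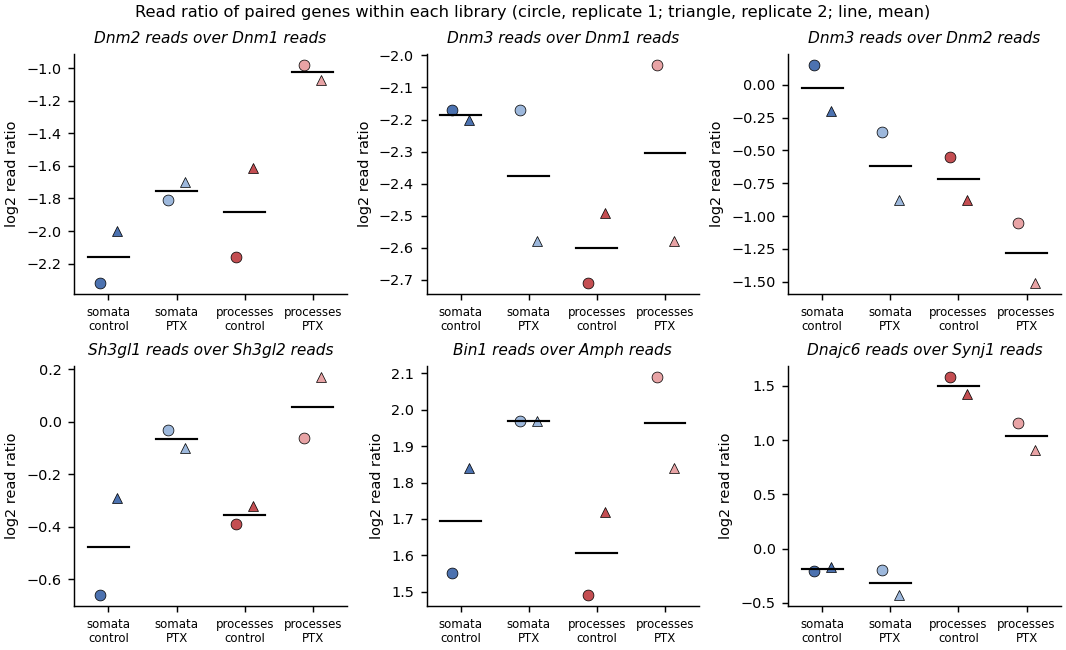
Log2 ratio of the reads of 2 genes in each library (vertical axes, which differ between panels and do not start at 0), with a circle for replicate 1, a triangle for replicate 2 and a line at the mean. Dnajc6 over Synj1 separates processes (1.88 to 3.0 reads per read) from somata (0.741 to 0.886), and Dnm2 over Dnm1 and Sh3gl1 over Sh3gl2 are higher in PTX than in control libraries of each compartment.

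Other genes of the pathway were counted over 4 lists: 23 clathrin coat and adaptor genes, 18 BAR and SH3 genes and paralogs of the members, 11 phosphoinositide enzymes and 12 kinases and phosphatase subunits together with Hsc70. Of these 64 genes 63 were tested. In processes against somata of control cultures, edgeR called 19 of them higher and 10 lower, with a median log2 fold change of 0.14. These 29 genes were 46.0% of the lists, near the 47.7% called among all tested genes. The endocytic adaptors Eps15 (1.63), Epn1 (1.49) and Ston2 (1.10) were higher in processes, as were the endophilin B gene Sh3glb1 (1.52), the scaffold Itsn1 (1.09) and Pip5k1c (1.03), the kinase that makes PI(4,5)P2 at synapses (edgeR adjusted p = 0.000281 or lower for these 6). Snx9, a BAR protein that binds dynamin, was higher at 0.63 (edgeR adjusted p = 0.00351). The lipid kinases Pip5k1a (-0.61, edgeR adjusted p = 0.00510) and Pi4k2a (-0.66, adjusted p = 0.0151) were lower, as were Aak1, a kinase of the AP2 adaptor (-0.51, adjusted p = 0.0231), and the calcineurin subunit Ppp3ca (-0.39, adjusted p = 0.0156). Sh3gl3, the remaining endophilin A, was also higher (0.55, edgeR adjusted p = 0.0238), where Sh3gl1 and Sh3gl2 were lower. Hspa8, which encodes the Hsc70 partner of auxilin, was at -0.52 (edgeR adjusted p = 0.00294), opposite to Dnajc6, and Gak, the widely expressed paralog of auxilin, was at -0.05 (adjusted p = 0.755).

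With PTX, 2 of the 63 genes rose and 2 fell in somata, with a median of 0.02. That is 6.35% of the lists, against 3.59% of all tested genes. With the replicate block edgeR called 9 higher and 6 lower in somata (23.8%, against 14.0% of all tested genes) and 2 higher and 8 lower in processes (15.9%, against 11.2%). Hip1r, which links clathrin to actin, rose by 0.77 (edgeR adjusted p = 0.00425) and the clathrin heavy chain Cltc by 0.60 (adjusted p = 0.0194). The early adaptor Fcho1 fell by 0.57 on the log2 scale (edgeR adjusted p = 0.0380), and Ppp3ca, which encodes a catalytic subunit of calcineurin, the phosphatase of dynamin, amphiphysin and synaptojanin, fell by 0.73 (adjusted p = 0.00602). In processes 1 rose and 2 fell (4.76%, against 3.74% of all tested genes), with a median of 0.04: Hip1r at 0.55 (edgeR adjusted p = 0.0331), Fcho1 at -0.84 (adjusted p = 0.0205) and Ppp3ca at -0.51 (adjusted p = 0.0381). Gak was at 0.26 in somata and 0.19 in processes (edgeR adjusted p = 0.255 and 0.448), next to -0.14 and -0.83 for Dnajc6. Hspa8 was at 0.24 and 0.02 (edgeR adjusted p = 0.315 and 0.963), and Sh3gl3 at -0.12 and -0.04 (adjusted p = 0.837 and 0.957).

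**Figure D4:**
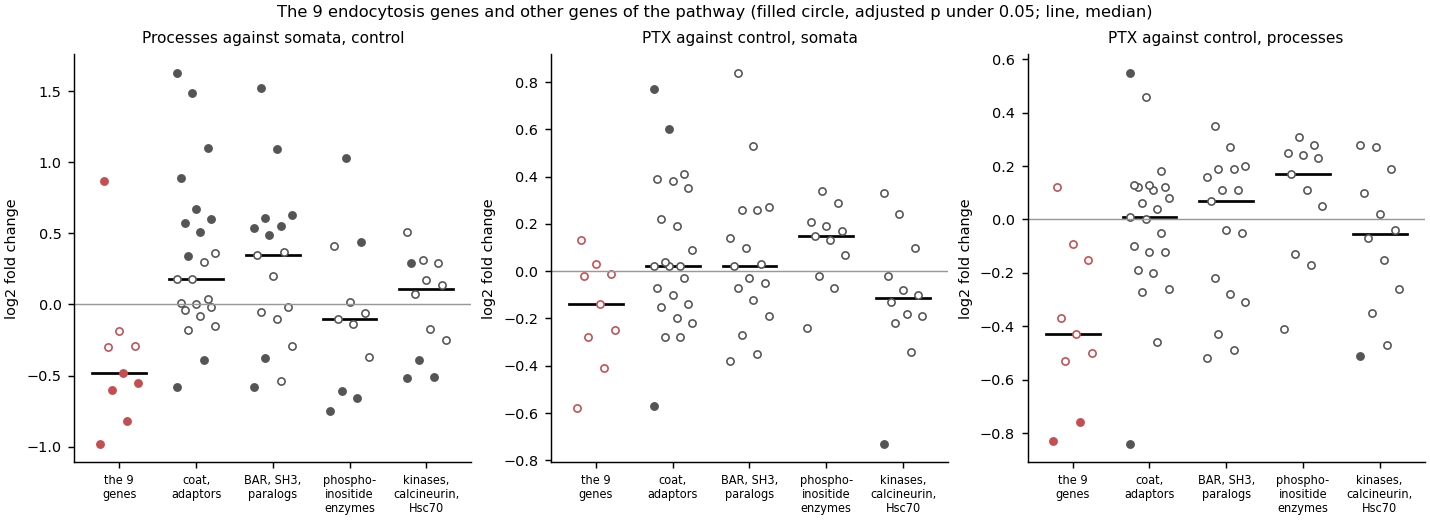
Fitted log2 fold changes (vertical axes) of the 9 genes, in red, and of the 63 other tested genes of the pathway, in grey by list, with filled circles for an adjusted p under 0.05 and a line at the median of each list. The medians of the 9 genes are -0.48, -0.14 and -0.43 from left to right, and those of the 4 lists lie between -0.12 and 0.35.

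Across the 8 libraries the log2 levels of the 8 members other than Dnajc6 went together, with Pearson correlations from 0.27 (Amph with Dnm2) to 0.97 (Amph with Dnm1), while those of Dnajc6 with the others ran from -0.72 (Dnm2) to 0.18 (Amph). These are descriptions over 4 groups of 2 libraries that share compartment, treatment and sequencing depth. Over the 10199 genes whose mean level reached 5 CPM, the closest to Dnm1 by this measure was Impdh1 (0.994), to Dnm2 Snu13 (0.982), to Dnm3 Cacna2d3 (0.999) and to Sh3gl1 Sptlc1 (0.994). For Sh3gl2 it was Ywhah (0.990), for Amph LOC108348161 (0.980), for Bin1 Miga2 (0.987), for Synj1 Aacs (0.997) and for Dnajc6 Atg13 (0.983).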

How the data were processed

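The labels gave each library its group and replicate number. The authors deposited whole-number read counts per gene symbol, without normalization. The labels name STAR, featureCounts, edgeR and the build Rnor 6.0, whereas the study's methods name Subread for alignment. Which aligner made the table was not resolved. The study used a directional library kit, but whether counting used strand was not stated. Reads of genes overlapping Dnm2, Dnm3, Sh3gl1 or any other member can therefore not be separated. The authors' tables of their own PTX comparisons (fold changes, p-values) were not used. Filtering, TMM, CPM and the quasi-likelihood test were run with edgeR 4.0.16 (R 4.3.3) over 14309 genes and 8 libraries, with 1 coefficient per group. Checks on simulated data preceded the fit. DESeq2 1.42.0, other scalings, filters and samples were alternatives. Replicate numbers come from the sample titles. The differences between replicates correlated at 0.27 to 0.54 for every pair of groups, so an alternative fit took the replicate number as a block. The main fit, the permutation tests and the group means took no account of it. All 9 members and the most similar genes by Pearson correlation were named; from each list, the called genes with the smallest adjusted p (at most 3) in the control compartments and with PTX. Gak, Sh3gl3 and the PTX values of Hspa8 were added after their values were seen. The members and lists were chosen with earlier results of these data known. Mitochondrial reads left fewer reads for the members in processes, which widens their errors.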

Additional observations from a re-analysis of the deposited data

Results flagged for a closer look

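The PTX difference of Dnajc6 in processes minus that in somata was -0.69 with the replicate block (SE 0.126, edgeR adjusted p = 0.0225), a difference between compartments that passed the test of the difference itself, and -0.70 without the block (SE 0.193, adjusted p = 1). With 1 library left out, in the fit without the block, it ranged from -0.83 to -0.55 and passed in none of the 8 fits.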

How the results depend on the processing

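Of 441 values of single members under other settings, 414 kept their direction and side of the threshold (3 of them uncalled values that changed sign), 23 came to pass it, 2 no longer passed it and 2 reversed. With 1 library left out, 345 of 360 kept both (8 of them uncalled values that changed sign) and 15 no longer passed; the lone remaining library is then assumed to vary like the other groups. The count of called members for PTX in somata was 0, but 2 (Dnm1 and Dnm3) with no filter and 3 with the replicate block. For PTX in processes it was 2, but 5 with the replicate block, 1 with only the libraries compared, and 0 to 2 with 1 library left out. For processes against somata it was 6 in control cultures (5 to 6 with 1 library left out) and 7 in PTX cultures (4 to 7). Between compartments, the count in control cultures was 8 with the replicate block, with upper-quartile scaling and with at least 10 reads in every library. By library size alone it was 9. That 10-read filter added Dnm2 (-0.37, edgeR adjusted p = 0.0228) and Bin1 (-0.36, adjusted p = 0.0357). In PTX cultures the compartment count was 6 with DESeq2, 8 with upper-quartile scaling and 9 by library size alone. The interaction count was 0, and 1 with the replicate block. The block changed no other call of a member than those given beside the results. Scaled by library size alone, Dnajc6 reversed to -0.94 between processes and somata in control and -1.66 in PTX cultures, where the medians of all tested genes were -1.86 and -1.87. Under upper-quartile scaling those medians were -0.25 and -0.23, and Dnm2 passed in both (-0.51 and -0.35) and Bin1 in control cultures (-0.50). Sh3gl2 in PTX processes passed with the likelihood ratio test, with no filter and with at least 10 reads in every library (edgeR adjusted p = 0.0240, 0.0448 and 0.0499), and Amph in PTX cultures did not pass with DESeq2 (adjusted p = 0.0893). The cause of these differences was not tested. With 2 libraries per group, the intervals beside the uncalled values show the differences that could not be resolved.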
